A study of Mus musculus with 6 samples.

Results

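The genes described here are 51 protein-coding genes on mouse chromosome 1 that lie around *Wnt6*, among the 55385 genes counted in the libraries. They were listed by name as annotated genes in the stretch around the deletion of the *Wnt6* anchor, with no expression threshold, though earlier results of these data were known when the list was made. In the GRCm38 build they run from the start of *Xrcc5* to the end of *Acsl3*, chr1:72307421-78707743, a stretch that holds 72 protein-coding genes in the annotation. By the position of their starts, 22 of them lie proximal of *Wnt6*, toward the centromere, and 29 lie distal of it, and 42 lie within 1 Mb of the *Wnt6* start. Of the 51 genes, 47 had at least 10 counts in at least 2 libraries and were tested, while *Rufy4*, *Slc23a3*, *Resp18* and *Mogat1* were below that minimum.

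The libraries are polyA RNA-seq of mouse embryonic stem cells (mESCs) of 3 genotypes, with 2 libraries each: WT, *Wnt6* heterozygous deletion (Wnt6_het_del) and *Wnt6* homozygous deletion (Wnt6_homo_del). The parental cells of every genotype are G4 mESCs, an F1 hybrid line with C57BL/6 as a parent strain, and the deletions were made with Cas9 and a pair of guides, on 1 allele or on both. Cells of every genotype were grown with LIF on a layer of CD1 feeder cells, so the RNA of a library can come from both kinds of cell. The labels do not say whether the libraries of a genotype came from separate cultures or from how many clones, so p-values measure only the spread between these samples, which may be technical. The comparison asks whether genes that share a chromosome with the anchor change their expression once it is gone.

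*Wnt6* sits in a domain of chromatin carrying H3K27me3, the histone mark that Polycomb repressive complex PRC2 writes on silent developmental genes. Such domains form over promoters rich in CG dinucleotides, and distant domains can meet in loops whose ends are called anchors. Most of the genes around *Wnt6* are of another kind, since they encode enzymes, cytoskeletal proteins and repair factors that many cell types need. A few are regulated developmental genes, such as *Ihh*, which encodes the secreted signal Indian hedgehog, and *Epha4*, a receptor that guides cells and axons.

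The libraries held between 23813912 and 28964706 counts, and 3 counts, taken as the floor, correspond to between 0.102 and 0.131 CPM. Libraries of a genotype varied beyond counting noise by a common coefficient of variation of 3.52%. *Wnt6* itself, which the deletion targets, had 11 and 13 counts in WT, 6 and 4 in Wnt6_het_del and 0 and 0 in Wnt6_homo_del. Its level in Wnt6_homo_del was at least 3.59-fold lower than in WT when 3 counts per library stand in for 0, so the labels and the targeted gene go together. The distant loop partner *Pax3* had between 4 and 11 counts in all libraries and was not tested. The 10 pluripotency markers that were listed were all tested and present, with *Pou5f1* at 28612 and 25323 counts in WT. Of 34 listed fibroblast markers, the kind of gene a feeder cell expresses, 32 were tested and none was at 0 in all libraries. Their summed level was 5662 and 5635 CPM in WT, 4477 and 4440 in Wnt6_het_del, and 3286 and 3258 in Wnt6_homo_del. In bulk RNA, fewer cells of a type and less RNA per cell cannot be told apart.

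In WT cells the neighbor genes covered a wide range of expression. On the scale of CPM per kb of exon, which allows levels of different genes to be compared, 14 of the 51 genes were at 10 or more, 19 lay between 1 and 10, and 18 were below 1. The highest level was that of *Arpc2*, a subunit of the ARP2/3 complex that branches actin filaments, at 92.2 CPM per kb. It was followed by *Igfbp2*, an IGF binding protein, at 73.9, *Farsb*, a subunit of phenylalanyl-tRNA synthetase, at 71.9, *Tuba4a*, an alpha tubulin, at 71.8, and *Xrcc5*, which encodes the Ku80 protein of DNA end joining, at 64.8. The spread between the WT libraries does not separate the levels of *Igfbp2*, *Farsb* and *Tuba4a*. The lowest levels were those of *Slc23a3*, at 0.0338 CPM per kb from 2 counts in each WT library, and *Mogat1*, at 0.0344 CPM per kb from 2 counts and 1 count. *Arpc2* had 5356 and 4920 counts in WT, 4890 and 5290 in Wnt6_het_del, and 4475 and 4716 in Wnt6_homo_del. Neither deletion moved it past the threshold, with log2 fold changes of 0.08 and 0.01 against WT.

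**Figure D1:**
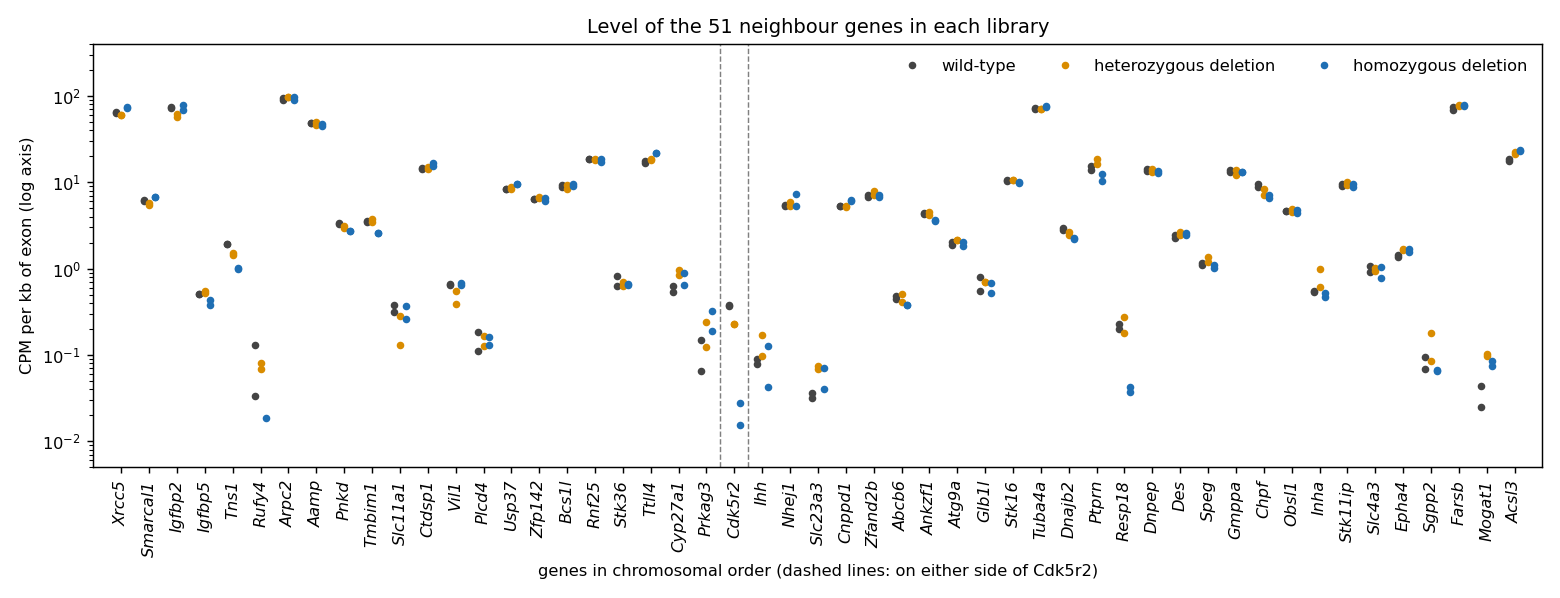
Level of each of the 51 genes in each of the 6 libraries, in CPM per kb of exon on a log axis, with genes in chromosomal order and *Cdk5r2* between the dashed lines. Each point is 1 library, and the library in which *Rufy4* had 0 counts is not drawn. Levels run from below 0.1 to above 90, and the points of a gene mostly lie on top of each other, except at *Cdk5r2* and at the genes of lowest level.

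Promoters of some of the 51 genes near *Wnt6* are shown here. Their WT levels were 0.107 CPM per kb for *Prkag3*, 17.2 for *Ttll4*, 0.371 for *Cdk5r2* and 0.0841 for *Ihh*. Between *Prkag3* and *Ttll4* lies *Cyp27a1*, at 0.582. The windows are 300 bases long, from 250 before to 50 after the RefSeq start on GRCm38.p6, written 5′ to 3′ on the strand of the gene, and all 51 genes had such a window. Capitals mark CG, which reads the same on both strands and cannot overlap itself. *Prkag3*, the nearest of the proximal genes (chr1:74748906-74749205, minus strand, 11 CG), and *Ttll4*, the nearest proximal gene that is well expressed (chr1:74661452-74661751, plus strand, 16 CG), are shown with *Cdk5r2* (chr1:74854779-74855078, plus strand, 33 CG) and *Ihh* (chr1:74951623-74951922, minus strand, 30 CG), the nearest distal genes among the 51.
Prkag3: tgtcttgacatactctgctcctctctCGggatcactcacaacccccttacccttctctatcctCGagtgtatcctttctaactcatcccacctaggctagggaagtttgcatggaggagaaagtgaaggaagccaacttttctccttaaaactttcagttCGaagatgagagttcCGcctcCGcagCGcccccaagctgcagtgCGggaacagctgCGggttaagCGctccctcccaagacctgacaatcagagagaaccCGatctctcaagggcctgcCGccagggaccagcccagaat
Ttll4: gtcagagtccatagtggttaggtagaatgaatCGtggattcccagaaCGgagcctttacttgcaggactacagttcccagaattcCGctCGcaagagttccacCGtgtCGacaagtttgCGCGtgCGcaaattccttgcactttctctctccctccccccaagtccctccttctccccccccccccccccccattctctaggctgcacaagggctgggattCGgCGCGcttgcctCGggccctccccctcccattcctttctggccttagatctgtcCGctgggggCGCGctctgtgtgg
Cdk5r2: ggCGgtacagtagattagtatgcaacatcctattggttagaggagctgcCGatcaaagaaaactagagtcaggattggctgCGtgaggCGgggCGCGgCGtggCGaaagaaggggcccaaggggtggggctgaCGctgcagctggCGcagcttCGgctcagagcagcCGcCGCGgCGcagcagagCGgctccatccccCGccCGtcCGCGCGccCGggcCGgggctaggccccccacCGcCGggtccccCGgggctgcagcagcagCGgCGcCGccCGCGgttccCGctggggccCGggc
Ihh: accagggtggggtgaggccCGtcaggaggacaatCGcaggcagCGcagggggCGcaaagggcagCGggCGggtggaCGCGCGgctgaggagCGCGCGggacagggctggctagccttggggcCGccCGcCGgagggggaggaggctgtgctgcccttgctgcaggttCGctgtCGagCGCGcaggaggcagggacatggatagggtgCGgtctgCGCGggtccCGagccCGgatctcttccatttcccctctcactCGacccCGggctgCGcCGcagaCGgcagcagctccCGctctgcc

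Across the 51 genes, the number of CG in the window ran from 3 to 40, with a median of 16. At least 10 CG were found in 41 of them (80.4%), against 43.5% of all 32851 RefSeq promoters of the same length and 56.8% of the 21263 promoters of protein-coding genes. The 14 genes of highest WT level had a median of 17 CG and the 19 of middle level a median of 18. The 18 genes below 1 CPM per kb had a median of 10, with a range from 3 to 34. This low group holds both kinds of promoter, since *Cdk5r2*, *Ihh* and *Sgpp2*, a sphingosine phosphate phosphatase, had 30 or more CG, whereas *Rufy4*, *Plcd4* and *Mogat1* had 3 each. Over the 51 genes the rank correlation of CG count with WT level was 0.355 (Spearman) and the correlation with log2 level was 0.327 (Pearson), given as a description across genes that share libraries and base composition. The RefSeq starts of *Pnkd* and *Usp37* lie 47680 and 38463 bases from the annotated gene starts used for position, so their windows describe other starts. Smaller distances also left the annotated start outside the window. Among these were *Tmbim1* (1286 bases), *Cnppd1* (1020), *Tuba4a* (571), *Inha* (532), *Arpc2* (433, with the highest number of 40 CG), *Dnpep* (353) and *Prkag3* (266).

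**Figure D2:**
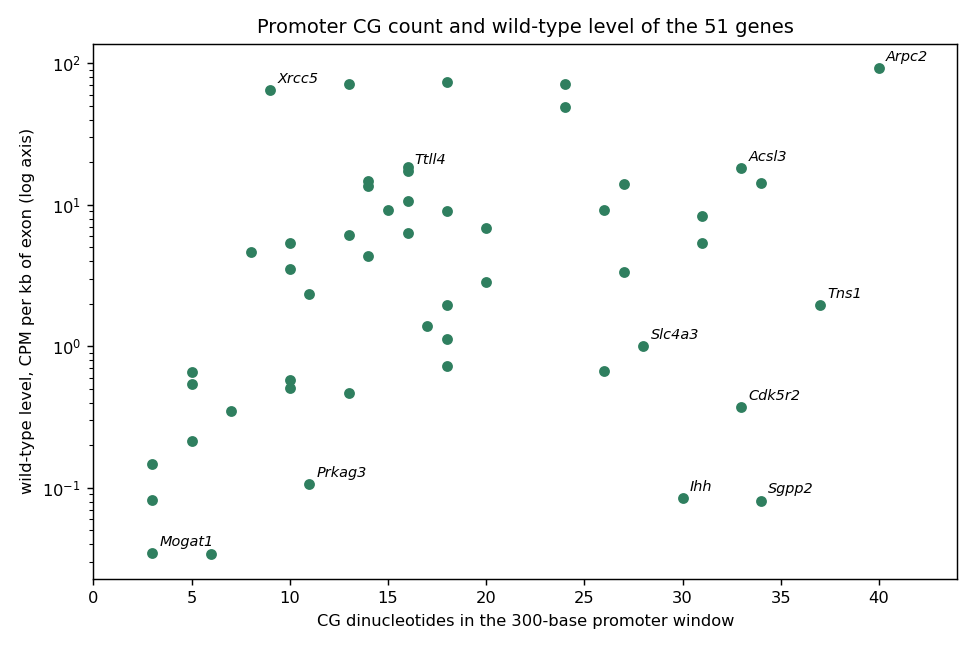
Number of CG dinucleotides in the 300-base promoter window (x axis) and WT level in CPM per kb of exon (y axis, log scale) for the 51 genes, each point 1 gene. *Cdk5r2*, *Ihh* and *Sgpp2* combine 30 or more CG with levels below 1, while *Xrcc5* combines 9 CG with a level of 64.8.

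*Cdk5r2*, whose product is the p39 activator of the neuronal kinase CDK5, followed the genotype in the way *Wnt6* did. It lies at chr1:74854934-74857732, 83.0 kb distal of the *Wnt6* start. It had 30 and 27 counts in WT, 16 and 17 in Wnt6_het_del, and 1 and 2 in Wnt6_homo_del, and no genotype overlapped another. Its level was 1.04 ± 0.0256 CPM in WT, 0.641 ± 0.00303 in Wnt6_het_del and 0.0603 ± 0.0235 in Wnt6_homo_del (SD, n = 2). The heterozygous cells thus held 61.7% of the WT level, a difference that missed the threshold after adjustment (log2 fold change -0.69 ± 0.33 SE, edgeR adjusted p = 0.30). The ratio of summed counts, Wnt6_het_del over WT, was 0.617, with an exact 95% counting interval from 0.39 to 0.96. The SD of 0.00303 is therefore smaller than counting error and gives no precision. Against WT, the summed counts of Wnt6_homo_del were 16.9-fold lower, with an exact 95% counting interval from 5.51 to 84.5, and the edgeR quasi-likelihood test gave an adjusted p of 1.9e-05 with Benjamini-Hochberg correction over the 16951 genes tested. Against Wnt6_het_del they were 10.4-fold lower, with an interval from 3.28 to 53.2 (edgeR adjusted p = 0.00049). The intervals cover counting error only. The breakpoints of the deletion were not analysed here, so whether *Cdk5r2* flanks the deletion or lies in it was not tested. Because its counts follow those of *Wnt6*, counts below are given with it and, where stated, without it.

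The listed genes next to *Wnt6* on the proximal side are *Prkag3*, a muscle subunit of the AMP-activated kinase, *Cyp27a1*, the sterol 27-hydroxylase of bile acid synthesis, *Ttll4*, a ligase that adds glutamate to tubulin and other proteins, and *Stk36*, a kinase linked to hedgehog signaling and cilia. *Prkag3*, 22.7 kb away, had 7 and 14 counts in WT, 22 and 12 in Wnt6_het_del, and 27 and 18 in Wnt6_homo_del. The homozygous libraries lay above both WT libraries, and the heterozygous ones overlapped them. Its log2 fold change in Wnt6_homo_del was 1.26 ± 0.46 (SE), with a 95% interval from 0.30 to 2.21 and an edgeR adjusted p of 0.056. Leaving out a library moved this log2 fold change over 0.745 to 1.94, so its size depends on single libraries. With all libraries kept, it passed with no filter on low counts (edgeR adjusted p = 0.00908) and with robust estimation (0.045). It did not pass with edgeR on DESeq2 size factors or on total counts, or with a replicate block.

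Apart from *Cdk5r2*, *Ttll4* was the nearest of the 47 tested genes to pass in a comparison, with its start 110 kb proximal of *Wnt6* (chr1:74661745-74703730). It had 6037 and 4899 counts in WT, 5153 and 5728 in Wnt6_het_del, and 5732 and 6631 in Wnt6_homo_del. In CPM these are 199 ± 9.64, 211 ± 5.74 and 253 ± 3.21 (SD, n = 2), and both homozygous libraries lay above the other 4. It rose by 0.35 ± 0.045 (SE) on the log2 scale in Wnt6_homo_del against WT, a 1.27-fold difference (edgeR adjusted p = 9.1e-06). Against Wnt6_het_del it was 1.20-fold higher (log2 fold change 0.26, edgeR adjusted p = 0.00023), and Wnt6_het_del against WT did not pass the test (0.09, edgeR adjusted p = 0.35). *Cyp27a1* had 34 and 35 counts in WT, 52 and 49 in Wnt6_het_del, and 32 and 51 in Wnt6_homo_del, with the heterozygous libraries above WT but no comparison past the threshold. *Stk36* had 156 and 103 counts in WT, 112 and 108 in Wnt6_het_del, and 98 and 108 in Wnt6_homo_del, and its genotypes overlapped.

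On the distal side the nearest of the listed genes beyond *Cdk5r2* are *Ihh*, *Nhej1*, a factor of non-homologous end joining, *Slc23a3*, of a family of ascorbate and nucleobase transporters, and *Cnppd1*, a protein with a cyclin-like domain. *Ihh*, 180 kb away, had 7 and 7 counts in WT, 13 and 8 in Wnt6_het_del, and 3 and 10 in Wnt6_homo_del, with homozygous and WT libraries overlapping. Its 95% interval for Wnt6_homo_del against WT ran from -1.22 to 1.33 on the log2 scale, which does not exclude a change of 2-fold in either direction. *Nhej1* had 180 and 150 counts in WT, 146 and 178 in Wnt6_het_del, and 186 and 156 in Wnt6_homo_del, and its genotypes overlapped. *Slc23a3* had between 2 and 4 counts in each library, at or near the floor. *Cnppd1*, the nearest distal gene to pass, had 891 and 774 counts in WT, 743 and 770 in Wnt6_het_del, and 777 and 906 in Wnt6_homo_del, with the homozygous libraries highest after scaling. It was 1.13-fold higher in Wnt6_homo_del than in WT (log2 fold change 0.18 ± 0.062 SE, edgeR adjusted p = 0.043), and leaving out any WT or homozygous library ended this call, with edgeR adjusted p between 0.068 and 0.19.

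**Figure D3:**
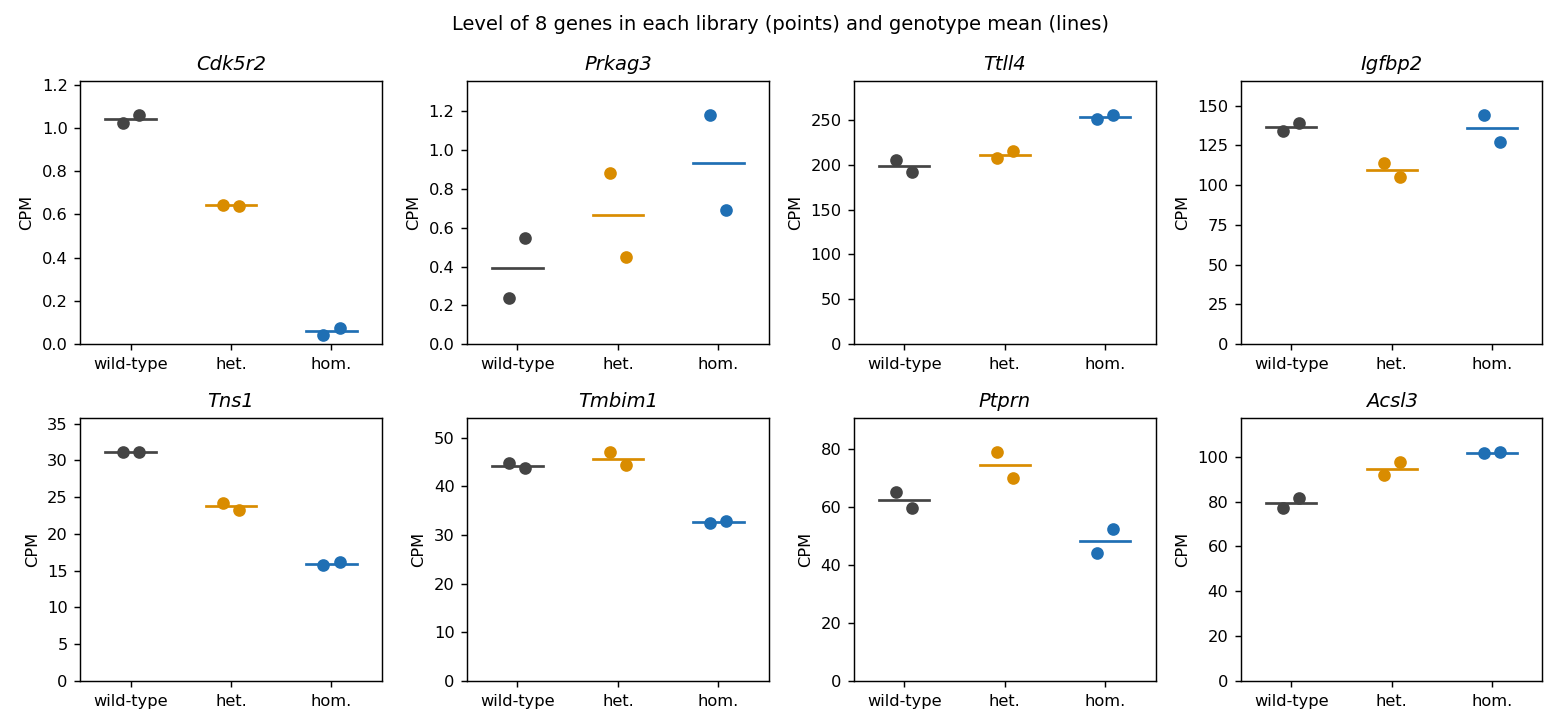
Level in CPM of 8 genes in each library (points) with the genotype mean (lines), on axes that start at 0. *Cdk5r2* falls from 1.04 CPM in WT to 0.0603 in the homozygous deletion, *Tns1* falls in steps from 31.1 to 16.0, and *Igfbp2* is lowest in the heterozygous deletion.

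Over all of the genes, most neighbors moved little. In Wnt6_het_del against WT, 4 of the 47 tested genes passed an adjusted p below 0.05, where 5.14% of all tested genes did. *Ptprn* and *Acsl3* were higher, beside 2.23% of all tested genes, and *Igfbp2* and *Tns1* lower, beside 2.91%. In Wnt6_homo_del against WT, 13 passed, 5 higher (*Xrcc5*, *Usp37*, *Ttll4*, *Cnppd1* and *Acsl3*) and 8 lower (*Tns1*, *Pnkd*, *Tmbim1*, *Cdk5r2*, *Ankzf1*, *Dnajb2*, *Ptprn* and *Chpf*). That is 27.7% of the genes, beside 21.4% of all tested genes (10.9% higher and 10.5% lower), and without *Cdk5r2* it is 12 of 46. In Wnt6_homo_del against Wnt6_het_del, 12 passed, 6 in each direction, which is 25.5% of the genes beside 25.8% of all tested genes (12.9% in each direction). With total counts as the only scaling, these counts became 1 higher and 2 lower for Wnt6_het_del against WT, and 4 higher and 12 lower between the deletions. Under that scaling 4.77% and 27.9% of all tested genes passed, and the median of all tested genes between the deletions was -0.086 on the log2 scale. The libraries of the genotypes did not overlap for 26 of the 47 genes in Wnt6_het_del against WT (14 higher and 12 lower), 28 in Wnt6_homo_del (12 higher and 16 lower) and 26 between the deletions (10 higher and 16 lower). These counts stand beside 47.7%, 57.9% and 61.4% of all tested genes. The comparisons share libraries, so their counts are not independent.

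The study's own rule also asks for an absolute log2 fold change above 1. Under it no neighbor passed in Wnt6_het_del, where 0.165% of all tested genes did, although 13 of the 47 genes had an unadjusted p below 0.05 by edgeR, beside 2757 of all 16951 tested genes. *Cdk5r2* was the only one to pass in Wnt6_homo_del against WT and between the deletions, where 2.14% and 1.39% of all tested genes did. DESeq2 called none under this rule in any comparison, and it gave *Cdk5r2* no adjusted p. The median log2 fold change of the 47 genes was 0.007 in Wnt6_het_del, -0.029 in Wnt6_homo_del and -0.062 between the deletions, beside 0.000, -0.006 and -0.020 over all tested genes.

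The intervals bounded the change of most genes closely. The interval of *Cdk5r2* reached beyond 1 in both deletions. For the 46 other tested genes, the 95% interval of the log2 fold change lay within 1 of 0 for 40 genes in Wnt6_het_del and for 42 in Wnt6_homo_del against WT. It lay within 0.5 of 0 for 37 and 30 genes. The genes whose interval reached beyond 1 were *Slc11a1*, *Cyp27a1*, *Prkag3*, *Ihh*, *Inha* and *Sgpp2* in Wnt6_het_del, all with 52 counts or fewer per library, and *Tns1*, *Prkag3*, *Ihh* and *Sgpp2* in Wnt6_homo_del. Only *Tns1* among the well counted genes had an interval that reached past a 2-fold loss, at -0.81 to -1.11.

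**Figure D4:**
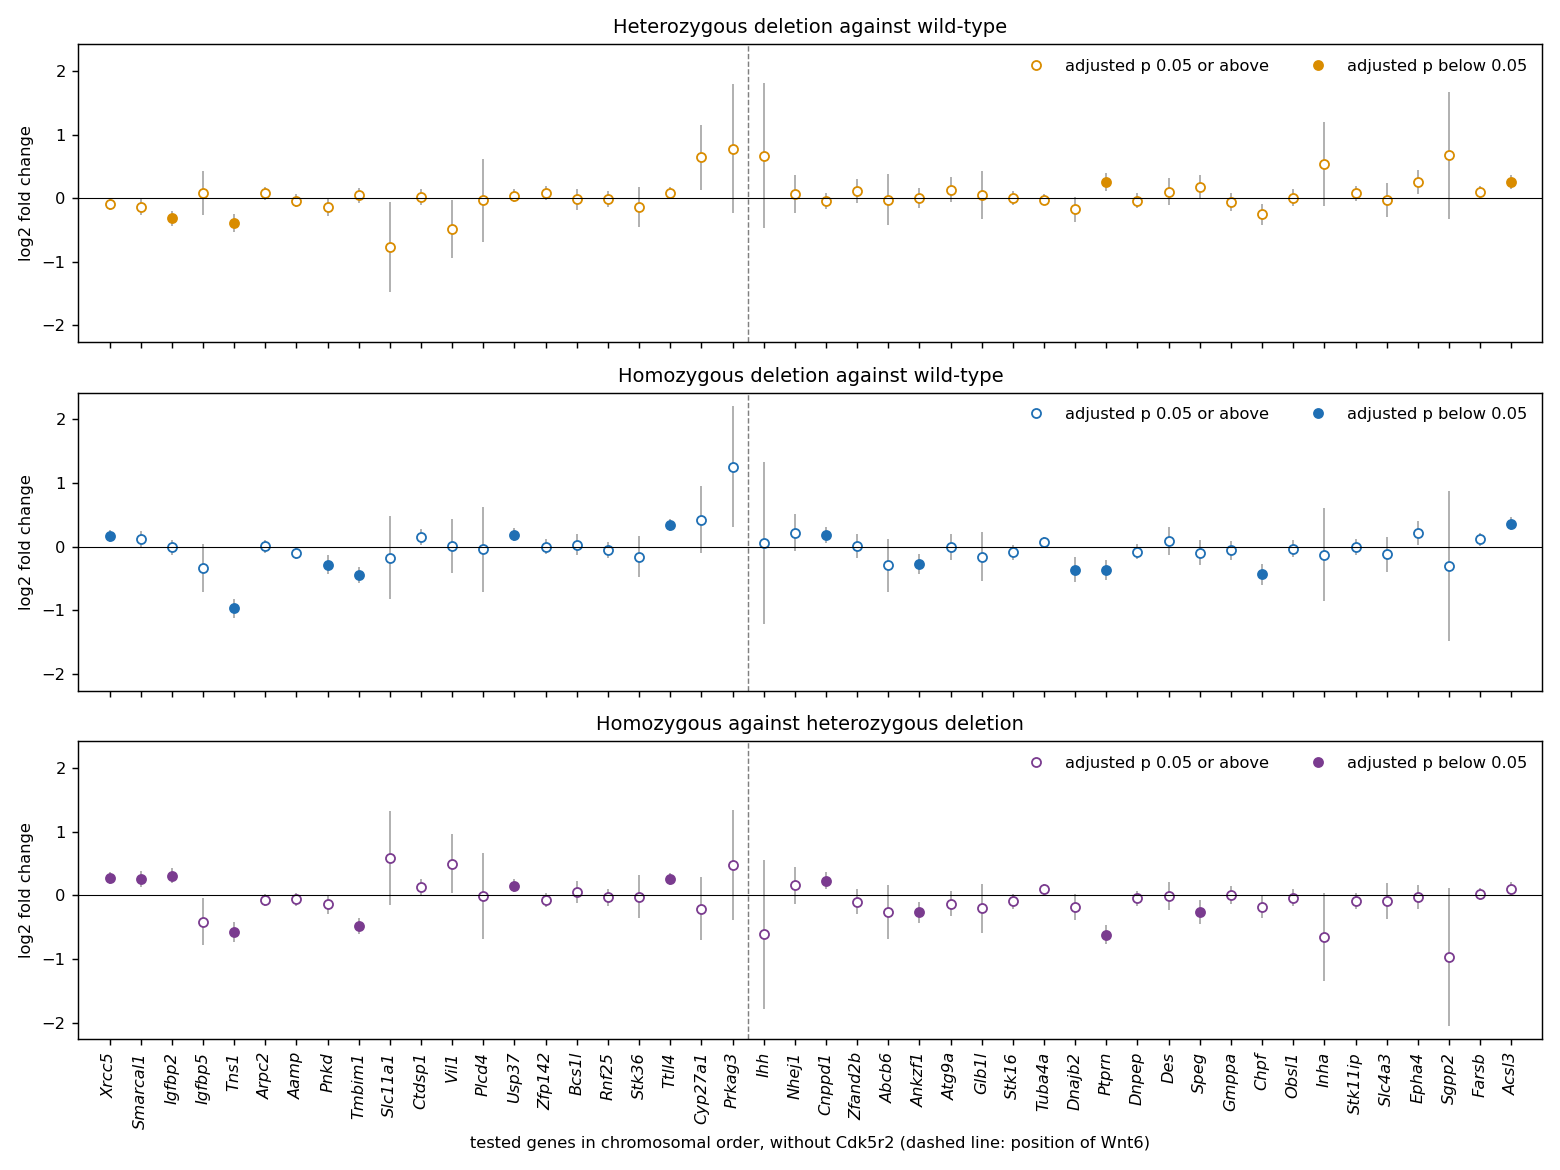
Log2 fold change (points) with its 95% interval (bars) of the 46 tested genes other than *Cdk5r2*, in chromosomal order, for the 3 comparisons. Filled points passed an adjusted p below 0.05, and the dashed line marks the position of *Wnt6*. Genes that passed stand on both sides and at both ends of the stretch, and wide bars belong to genes of low count such as *Prkag3*, *Ihh* and *Sgpp2*.

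Genes that passed lay on both sides of *Wnt6*. In Wnt6_homo_del against WT, 6 of 21 tested proximal genes and 6 of 25 distal genes other than *Cdk5r2* passed, and within 1 Mb, *Cdk5r2* included, 11 of 39 did. In Wnt6_het_del 2 of 21 and 2 of 25 passed, and 2 of 39 within 1 Mb. Between the deletions 7 of 21 proximal genes (33.3%) and 4 of 25 distal genes (16.0%) passed, and 9 of 39 within 1 Mb. On chromosome 1 outside the stretch, 930 genes were tested, of which 6.45% passed in Wnt6_het_del, 19.1% in Wnt6_homo_del and 24.3% between the deletions. A difference between sides or distances was not tested.

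Among the cytoskeletal and muscle proteins, 8 genes were tested, and in Wnt6_homo_del *Ttll4* rose and *Tns1* fell. *Tns1* encodes tensin 1, which ties actin filaments to integrins at focal adhesions, and it lies 647 kb proximal of *Wnt6* (chr1:73910231-74124449). It had 915 and 795 counts in WT, 604 and 619 in Wnt6_het_del, and 361 and 420 in Wnt6_homo_del, and no genotype overlapped another. It fell by 0.39 ± 0.067 (SE) on the log2 scale in Wnt6_het_del (edgeR adjusted p = 0.00099) and by 0.96 ± 0.071 in Wnt6_homo_del (edgeR adjusted p = 5.4e-09). Between the deletions it fell by a further 0.57 (edgeR adjusted p = 7.6e-06). Apart from *Cdk5r2* it was the largest fall that passed in Wnt6_homo_del against WT, and the fibroblast markers fell in the same libraries. Of the 32 tested markers, 24 fell and 1 rose at an edgeR adjusted p below 0.05 in Wnt6_het_del, and 30 fell in Wnt6_homo_del against WT, where 2.91% and 10.5% of all tested genes fell. Their median log2 fold changes were -0.48 and -1.05. Between the deletions 28 of them fell and 1 rose by the same rule, where 12.9% of all tested genes fell. Their part in the change of *Tns1* was not tested. The muscle genes *Des* (desmin) and *Speg* did not pass against WT, nor did *Vil1* (villin), *Obsl1*, *Tuba4a* or *Arpc2*. *Speg*, a kinase of striated muscle, had 437 and 358 counts in WT, 433 and 407 in Wnt6_het_del, and 295 and 370 in Wnt6_homo_del. After scaling, the heterozygous libraries lay above those of both other genotypes, which overlapped. It was lower in Wnt6_homo_del than in Wnt6_het_del by 0.27 on the log2 scale (edgeR adjusted p = 0.040), a call that was lost without any of 4 libraries, both WT replicates and replicate 1 of either deletion, at edgeR adjusted p between 0.054 and 0.32.

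Of the 4 tested secreted signals and IGF binding proteins, *Igfbp2* alone passed. It had 3941 and 3546 counts in WT, 2829 and 2799 in Wnt6_het_del, and 3295 and 3315 in Wnt6_homo_del. The heterozygous libraries were lowest, and homozygous and WT libraries overlapped after scaling, at 136 ± 11.7 and 137 ± 3.34 CPM (SD, n = 2). It fell by 0.32 ± 0.055 (SE) on the log2 scale in Wnt6_het_del (edgeR adjusted p = 0.0012) and was 1.24-fold higher in Wnt6_homo_del than in Wnt6_het_del (edgeR adjusted p = 0.00035). Its neighbor *Igfbp5*, of the same family, had 90 and 77 counts in WT, 83 and 83 in Wnt6_het_del, and 59 and 59 in Wnt6_homo_del. The homozygous libraries were lowest, and the log2 fold change of -0.33 against WT did not pass (edgeR adjusted p = 0.21). *Inha*, the alpha subunit of inhibin, had between 16 and 36 counts per library and passed in no comparison.

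Of 5 tested DNA repair and nuclear factors, 1 passed in Wnt6_homo_del against WT and 2 between the deletions, each higher in Wnt6_homo_del. Beside these counts, 21.4% and 25.8% of all tested genes passed in either direction. *Xrcc5* had 4829 and 4260 counts in WT, 3849 and 4120 in Wnt6_het_del, and 4339 and 4775 in Wnt6_homo_del. After scaling, the homozygous libraries were highest and the heterozygous ones lowest, at 186 ± 4.22 and 155 ± 0.0791 CPM against 166 ± 1.74 in WT (SD, n = 2). It was 1.13-fold higher in Wnt6_homo_del than in WT (edgeR adjusted p = 0.0061, and 0.081 without WT replicate 1) and 1.20-fold higher than in Wnt6_het_del (edgeR adjusted p = 8.9e-05). *Smarcal1*, an annealing helicase that protects replication forks, had 1047 and 887 counts in WT, 788 and 867 in Wnt6_het_del, and 885 and 994 in Wnt6_homo_del, with the same order of genotypes as *Xrcc5*. It passed only between the deletions, 1.20-fold higher in Wnt6_homo_del (edgeR adjusted p = 0.0037). *Ctdsp1*, *Nhej1* and *Zfp142* passed in no comparison. Between the deletions, 8 of the 10 pluripotency markers also rose at an edgeR adjusted p below 0.05, where 12.9% of all tested genes rose, and the median log2 fold change of the 10 was 0.17. By the same rule 6 of them fell in Wnt6_het_del against WT, where 2.91% of all tested genes fell. In Wnt6_homo_del against WT 1 of them rose and 1 fell, where 10.9% and 10.5% of all tested genes did. The median log2 fold change of the 10 was 0.011 there. The part of these markers in the values of *Xrcc5*, *Smarcal1* and *Igfbp2* was not tested.

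Among 8 tested genes of ubiquitin, chaperone, autophagy and protein turnover, *Usp37* rose and *Ankzf1* and *Dnajb2* fell in Wnt6_homo_del. *Usp37*, a deubiquitinase of the cell cycle, had 2744 and 2370 counts in WT, 2305 and 2636 in Wnt6_het_del, and 2443 and 2759 in Wnt6_homo_del, the highest after scaling, while the heterozygous libraries overlapped WT. It was 1.14-fold higher in Wnt6_homo_del than in WT (edgeR adjusted p = 0.0060, and 0.051 without WT replicate 1) and 1.11-fold higher than in Wnt6_het_del (edgeR adjusted p = 0.026, and 0.25 without Wnt6_het_del replicate 1 or 0.067 without Wnt6_homo_del replicate 1). *Dnajb2*, an HSP40 co-chaperone, had 351 and 317 counts in WT, 280 and 275 in Wnt6_het_del, and 221 and 243 in Wnt6_homo_del, with the homozygous libraries lowest. It fell by 0.36 ± 0.096 (SE) on the log2 scale against WT (edgeR adjusted p = 0.010, and 0.091 without WT replicate 2). *Ankzf1*, which acts in ribosome quality control, had 650 and 572 counts in WT, 528 and 618 in Wnt6_het_del, and 414 and 489 in Wnt6_homo_del. It fell by 0.27 ± 0.076 (SE) against WT (edgeR adjusted p = 0.015) and by 0.27 against Wnt6_het_del (edgeR adjusted p = 0.014). The first of these calls was lost without either WT library or Wnt6_homo_del replicate 1 (edgeR adjusted p from 0.067 to 0.097), and the second without Wnt6_het_del replicate 2 or Wnt6_homo_del replicate 1 (0.15 and 0.066).

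*Ankzf1* starts head to head with *Atg9a*, a scramblase of autophagosome formation on the opposite strand. In the gene annotation their starts lie 45 bases apart and their exons overlap over 46 bases, while in RefSeq the starts lie 150 bases apart. The window of *Ankzf1* (chr1:75191910-75192209, plus strand, 14 CG) holds the starts of both genes and is shown as their shared promoter.
Ankzf1: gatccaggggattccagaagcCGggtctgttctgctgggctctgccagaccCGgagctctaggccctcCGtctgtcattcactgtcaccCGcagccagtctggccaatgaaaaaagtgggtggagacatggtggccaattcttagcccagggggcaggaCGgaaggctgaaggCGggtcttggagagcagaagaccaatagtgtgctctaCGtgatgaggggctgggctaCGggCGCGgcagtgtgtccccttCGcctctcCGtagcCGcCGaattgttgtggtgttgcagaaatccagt

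*Atg9a* had 318 and 298 counts in WT, 304 and 329 in Wnt6_het_del, and 243 and 306 in Wnt6_homo_del. After scaling, its homozygous and WT libraries overlapped, and its log2 fold change against WT was -0.002 beside -0.27 for *Ankzf1*; the difference between them was not tested. The genes form 4 such pairs whose starts lie within 1000 bases in both annotations. The others are *Zfp142* with *Bcs1l*, a chaperone of mitochondrial complex III, *Rnf25* with *Stk36*, and *Glb1l* with *Stk16*. Levels within a pair could differ widely, by 1.42-fold for *Zfp142* and *Bcs1l*, 2.22-fold for *Ankzf1* and *Atg9a*, 15.8-fold for *Stk16* over *Glb1l* and 25.6-fold for *Rnf25* over *Stk36*, per kb of exon in WT. No gene of these pairs other than *Ankzf1* passed the edgeR test in any comparison. Exons of *Ankzf1* overlap those of *Glb1l* on the other strand over 505 bases, those of *Zfp142* overlap *Plcd4* over 2101, and those of *Stk16* overlap the highly expressed *Tuba4a* over 1379. Reads there may be shared in the levels of these genes, since the strand setting of the counting is not given in the sources used here. *Atg9a* shares 1832 exonic bases with the transcript *Gm29253* on the same strand, which bears on its counts under any strand setting.

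In the membrane transport group 4 genes were tested, and *Tmbim1*, a protein of endosome and lysosome membranes, passed. It lies 466 kb proximal of *Wnt6*, and its exons overlap those of the transcript *Gm29358* on the other strand over 3265 bases. It had 1315 and 1117 counts in WT, 1171 and 1179 in Wnt6_het_del, and 743 and 855 in Wnt6_homo_del. Its heterozygous libraries overlapped WT, and the homozygous ones lay below all others. In Wnt6_homo_del it fell by 0.44 ± 0.060 (SE) on the log2 scale against WT (edgeR adjusted p = 1.7e-05) and by 0.48 against Wnt6_het_del (edgeR adjusted p = 4.8e-06). *Slc11a1*, a metal transporter of phagocytes, had between 13 and 41 counts, *Abcb6* between 46 and 76 and *Slc4a3*, an anion exchanger, between 154 and 273, and none of them passed. *Abcb6* shares 2932 of its 5315 exonic bases with *Gm29253* on the same strand, which bears on its counts and level under any strand setting.

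Of 8 tested metabolic and biosynthetic enzymes, *Acsl3* rose and *Chpf* and *Pnkd* fell in Wnt6_homo_del. *Acsl3*, an acyl-CoA synthetase of lipid droplets, is the farthest of the genes, 3886 kb distal of *Wnt6*. It had 2263 and 2086 counts in WT, 2286 and 2595 in Wnt6_het_del, and 2326 and 2656 in Wnt6_homo_del. Both deletions lay above WT after scaling, at 94.7 ± 3.98 and 102 ± 0.356 against 79.4 ± 3.30 CPM (SD, n = 2). It was 1.28-fold higher in Wnt6_homo_del (edgeR adjusted p = 1.9e-05) and 1.19-fold higher in Wnt6_het_del (edgeR adjusted p = 0.0032). The heterozygous call was lost without WT replicate 1 or Wnt6_het_del replicate 2 (edgeR adjusted p = 0.11 and 0.086). *Acsl3* shares 244 exonic bases with *Utp14b* on the same strand, which had 1014 and 908 counts in WT, 1220 and 1303 in Wnt6_het_del, and 780 and 891 in Wnt6_homo_del.

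*Chpf*, which polymerizes chondroitin chains of proteoglycans, had 1085 and 860 counts in WT, 805 and 723 in Wnt6_het_del, and 625 and 655 in Wnt6_homo_del. Both deletions were lower than WT after scaling and overlapped each other. It fell by 0.43 ± 0.080 (SE) on the log2 scale in Wnt6_homo_del (edgeR adjusted p = 0.00049), and the log2 fold change of -0.25 in Wnt6_het_del did not pass (edgeR adjusted p = 0.076). *Pnkd*, a gene of paroxysmal dyskinesia whose body spans *Tmbim1*, had 758 and 682 counts in WT, 582 and 645 in Wnt6_het_del, and 496 and 561 in Wnt6_homo_del. It fell by 0.28 ± 0.069 (SE) in Wnt6_homo_del (edgeR adjusted p = 0.0061, and 0.076 without WT replicate 2). The fibroblast markers fell in the homozygous libraries, as *Tmbim1*, *Chpf* and *Pnkd* did, by the sums given above. In Wnt6_het_del against WT 24 of the 32 tested markers fell and 1 rose, where 2.91% of all tested genes fell. There the log2 fold changes were 0.045 for *Tmbim1*, -0.25 for *Chpf* and -0.14 for *Pnkd*, and none of these genes passed. The part of the markers in these changes was not tested. *Farsb*, *Gmppa*, *Glb1l*, *Cyp27a1* and *Sgpp2* passed in no comparison.

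*Ptprn* and *Resp18*, neighbors that encode proteins of neuroendocrine secretory granules, were both lowest in Wnt6_homo_del. *Ptprn* had 1913 and 1518 counts in WT, 1963 and 1862 in Wnt6_het_del, and 1013 and 1364 in Wnt6_homo_del. The genotypes did not overlap after scaling, with Wnt6_het_del highest. It fell by 0.36 ± 0.074 (SE) on the log2 scale in Wnt6_homo_del against WT (edgeR adjusted p = 0.0011) and by 0.62 against Wnt6_het_del (edgeR adjusted p = 2.5e-06). It was 1.19-fold higher in Wnt6_het_del than in WT (edgeR adjusted p = 0.040), a call lost without either WT library or Wnt6_het_del replicate 1 (edgeR adjusted p from 0.066 to 0.41). *Resp18* had 6 and 6 counts in WT, 7 and 5 in Wnt6_het_del, and 1 and 1 in Wnt6_homo_del, below the minimum for the test. The homozygous counts lie under the floor of 3. The summed counts were 5.35-fold lower in Wnt6_homo_del than in WT, with an exact 95% counting interval from 1.19 to 49.2. In a fit without the minimum it did not pass against WT (edgeR adjusted p = 0.14) or between the deletions (edgeR adjusted p = 0.0998).

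The kinases, receptors and other signaling proteins gave no call but that of *Cdk5r2*, among 8 tested. *Epha4*, which lies 2743 kb distal of *Wnt6*, had 322 and 293 counts in WT, 335 and 352 in Wnt6_het_del, and 313 and 325 in Wnt6_homo_del. Both deletions lay above WT after scaling, with log2 fold changes of 0.25 and 0.22 that did not pass (edgeR adjusted p = 0.14 and 0.098). *Aamp*, *Stk16*, *Stk11ip*, *Plcd4*, *Stk36* and *Prkag3* also passed in no comparison. Of the genes of unplaced role, *Rufy4*, an effector of autophagy, had 9 and 2 counts in WT, 4 and 5 in Wnt6_het_del, and 1 and 0 in Wnt6_homo_del, and was not tested. Among the 85 other genes that the annotation places in the stretch, 9 were tested, and 1 passed in Wnt6_het_del (*Utp14b*, higher), 1 in Wnt6_homo_del (*Wnt6*, lower) and both between the deletions, each lower in Wnt6_homo_del.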

How the data were processed

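RNA-seq libraries of 3 genotypes, 2 each, were grouped by their labels. The values deposited by the authors are unnormalized whole-number counts for 55385 genes. The submitters' processing notes list Trimmomatic 0.39, STAR 2.6.1d, SAMtools 1.9, featureCounts 1.6.4 and DESeq2 1.22.2, with the build mm10 (GRCm38). The libraries were made with a stranded kit, and the strand setting of the counting is not given in the sources used here. The methods state triplicates, and the 6 labeled libraries were used.

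A minimum of 10 counts in 2 or more libraries kept 16951 genes, which were tested with edgeR 4.0.16 in R 4.3.3, with TMM factors and a single quasi-likelihood fit of the 3 genotypes, and Benjamini-Hochberg adjustment over all of them. CPM are TMM-scaled. The SE of a log2 fold change is its absolute value divided by the square root of the quasi-likelihood F statistic. Intervals of log2 fold changes use this SE and a t quantile with the degrees of freedom of the fit. Levels per kb use the exon union in the GENCODE GRCm38 annotation, and promoters come from RefSeq. The script was tested on simulated data. The floor of 3 counts and the intervals of count ratios cover counting error only.

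The genes and marker lists were chosen with earlier results of these data known. Values per library are given for *Wnt6*, *Cdk5r2*, the 4 nearest genes on each side, genes with an adjusted p below 0.05, and the highest and lowest levels. Others so described (*Atg9a*, *Utp14b*, *Igfbp5*, *Epha4*, *Resp18* and *Rufy4*) were chosen after their values were seen. Results were recomputed with DESeq2 1.42.0, with edgeR on DESeq2 size factors or on total counts, with other count minima, only the libraries compared, robust estimation, a replicate block, a window of 1 Mb, no *Cdk5r2*, and each library left out. Breakpoints and the other experiments were not analysed here.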

Additional observations from a re-analysis of the deposited data

Results flagged for a closer look

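The effects of the heterozygous and the homozygous deletion against WT differed for 12 of the 47 tested genes, by the direct edgeR quasi-likelihood test of Wnt6_homo_del against Wnt6_het_del at an adjusted p below 0.05, where 25.8% of all tested genes did. On the log2 scale, the homozygous minus heterozygous difference was 0.269 for *Xrcc5*, 0.258 for *Smarcal1*, 0.309 for *Igfbp2*, 0.150 for *Usp37*, 0.258 for *Ttll4* and 0.226 for *Cnppd1*. It was -0.574 for *Tns1*, -0.484 for *Tmbim1*, -3.287 for *Cdk5r2*, -0.270 for *Ankzf1*, -0.619 for *Ptprn* and -0.266 for *Speg*. The fitted value of *Cdk5r2* rests on 3 counts in the homozygous libraries. *Igfbp2* and *Ptprn* are the genes of this list that passed against WT in the heterozygous deletion with a sign other than that of the difference. With 2 libraries per genotype no library could be tested as an outlier.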

How the results depend on the processing

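In every alternative run that gave an adjusted p, the calls of 2 of 4 genes in Wnt6_het_del (*Igfbp2* and *Tns1*), 7 of 13 in Wnt6_homo_del (*Acsl3*, *Cdk5r2*, *Chpf*, *Ptprn*, *Tmbim1*, *Tns1* and *Ttll4*) and 8 of 12 between the deletions (*Cdk5r2*, *Igfbp2*, *Ptprn*, *Smarcal1*, *Tmbim1*, *Tns1*, *Ttll4* and *Xrcc5*) kept an adjusted p below 0.05. Leaving out each library in turn gave 2 to 5 genes in Wnt6_het_del, 9 to 15 in Wnt6_homo_del and 9 to 12 between the deletions, beside 2.09% to 7.72%, 12.7% to 21.4% and 17.3% to 25.8% of all tested genes, and a genotype left with a lone library was assumed to vary like the others. DESeq2 called 3, 9 and 9 genes in these comparisons, beside 2.84%, 13.4% and 16.3% of all tested genes. The genes within 1 Mb alone gave 2 calls in Wnt6_het_del. Under the rule that adds an absolute log2 fold change above 1, Wnt6_homo_del against WT gave 1 to 2 genes over the libraries left out, 2 under total counts (*Tns1* joined *Cdk5r2*), no filter and robust estimation (*Prkag3* joined), and 0 under DESeq2, a minimum of 30 counts and without *Cdk5r2*. Between the deletions the same rule gave 0 under DESeq2, a minimum of 30 counts and without *Cdk5r2*. DESeq2 gave no adjusted p for *Cdk5r2*, *Prkag3* and *Ihh*, nor for *Cyp27a1* in Wnt6_het_del against WT. The missing adjusted p of *Cdk5r2* and its removal by a minimum of 30 counts show the cause of those zeros. Values near 0 changed sign. Left-out libraries moved the log2 fold change against WT in Wnt6_het_del over -0.008 to 0.089 for *Usp37*, -0.313 to 0.083 for *Stk36*, -0.034 to 0.155 for *Nhej1* and -0.069 to 0.061 for *Ankzf1*. In Wnt6_homo_del they moved it over -0.099 to 0.077 for *Igfbp2*, -0.048 to 0.060 for *Arpc2*, -0.325 to 0.061 for *Stk36*, -0.049 to 0.583 for *Ihh* and -0.003 to 0.435 for *Nhej1*, and between the deletions over -0.097 to 0.053 for *Stk36* and -0.069 to 0.369 for *Nhej1*. Total counts gave 0.009 for *Ankzf1* in Wnt6_het_del, and -0.051 for *Arpc2* and -0.001 for *Ihh* in Wnt6_homo_del, and no filter gave -0.001 for *Arpc2*. With the replicate number as a block, 5, 12 and 12 genes passed in the 3 comparisons; *Chpf* joined in Wnt6_het_del (adjusted p = 0.034) and *Cnppd1* was lost in Wnt6_homo_del (adjusted p = 0.057). Libraries that share a number did not deviate together across genes (correlations 0.0261, -0.0944 and 0.00865 between genotypes). Whether they share a culture or a preparation cannot be read from these correlations, and the labels do not say. Depth limits genes under about 50 counts per library.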
